A study of Mus musculus with 4 samples.

Results

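The caudoputamen (CP), the dorsal striatum of the mouse, was compared between GqCNO mice, whose midbrain dopamine neurons carried an excitatory receptor and were activated through it for 1 week, and mice given the ligand alone. The 5 mice compared (3 GqCNO, 2 CNO alone) were chosen by label, as the mice of both groups that have a CP column, and they give 5 of the 47 columns of a region of a mouse in the series. All genes entered, with no choice by their values, and 10813 of 22221 listed genes reached the level that was tested.

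Spatial transcriptomics (Visium, 10x Genomics, v1 chemistry) reads out RNA at barcoded discs under a tissue section, and each transcript is counted once through its unique molecular identifier (UMI). All mice were homozygous DAT (iCre/iCre) males of 3 to 4 months, in which Cre is made under control of the dopamine transporter gene, and all were single housed with a running wheel. GqCNO mice were injected bilaterally in the midbrain with a Cre-dependent AAV encoding hM3Dq(Gq)-mCherry, a designer receptor that clozapine-N-oxide (CNO) activates, and drank CNO at 300 mg/L in 2% sucrose for 1 week. GqVeh mice (n = 3) had the same injection and drank 2% sucrose without CNO. CNO alone mice (n = 2) were not injected and drank the same CNO water as GqCNO mice. GqCNO and CNO alone mice therefore differed in surgery, virus, receptor and the activity it drives, and these cannot be told apart in this comparison, while the drug itself was shared. Sections of 10 μm lay on 2 striatal arrays of 4 mice each. GqCNO mice 801 and 804 shared array 1 with 1 GqVeh mouse (802) and 1 mouse given CNO alone (C2W2). On array 2, GqCNO mouse 781 lay beside 2 GqVeh mice (784, 785) and the second mouse given CNO alone (C1W7). Within a group, values stand in the order of mice 801, 804, 781, of mice 802, 784, 785 and of mice C2W2, C1W7.

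The caudoputamen receives the densest dopamine input of the brain, from the axons of the substantia nigra. Most of its neurons are GABAergic projection neurons of a direct pathway, which carry the D1 receptor, dynorphin and substance P, and of an indirect pathway, which carry the D2 receptor, the adenosine receptor Adora2a and enkephalin. Dopamine acts on both through cAMP and DARPP-32 (Ppp1r1b), glutamate from cortex and thalamus drives them, and both inputs set the transcription of activity-regulated genes such as Fos, Arc and Npas4. The messenger RNA of dopamine neurons stays mostly in the midbrain, so that the CP reads mainly the response of the target tissue and its glia.

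A CP column pooled 357 to 560 discs with 4300381 to 7977003 UMIs in all, and the limit that a count of 0 allows (3 UMIs, for counting error only) lay between 0.00376 and 0.00698 UMIs per 10000. UMIs per disc were 12190, 12050 and 11430 in GqCNO mice and 10400 and 9163 in CNO alone mice, so that the GqCNO sections were the deeper ones on both arrays. Whether this difference in capture took part in the results below was not tested. On the log2 scale, across genes, CP columns of the same array correlated at 0.980 to 0.993 and columns of different arrays at 0.933 to 0.974, and the array entered the fit as a block. Nothing in the labels sets the mice of a group apart beyond being separate animals. The p-values of limma measure the spread between these mice, pooled with that of other genes at a like level. They thus do not rest on the spread of each gene alone. All levels below are UMIs per 10000 UMIs of the column, and all log2 differences are GqCNO minus CNO alone on log2(level + 0.05), with the standard error (SE), unless said otherwise. In bulk columns of this kind, fewer cells of a type and less RNA per cell cannot be told apart.

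The columns carried the markers of the labelled tissue. Ppp1r1b, by which the authors picked CP discs, was at 23.4, 22.9 and 25.6 in GqCNO mice and at 23.6 and 22.4 in CNO alone mice (log2 difference 0.07, SE 0.10). Drd1, the D1 dopamine receptor, was at 2.86, 2.83 and 2.38 in GqCNO mice and at 2.86 and 2.17 in CNO alone mice (0.05, SE 0.09). Both overlapped between the groups. Of the 15 markers of both kinds of projection neuron, the summed level was 104 to 111 in GqCNO mice, 103 to 121 in GqVeh mice and 96.7 to 120 in CNO alone mice. Summed markers of septal neurons stayed at 0.722 to 0.877 in GqCNO mice and at 0.886 and 0.913 in CNO alone mice, and those of cortical and other glutamatergic neurons at 1.73 to 2.24 in GqCNO mice and at 2.48 and 1.89 in CNO alone mice. Other discs were labelled as nucleus accumbens on array 1 alone, 71 and 172 in GqCNO mice and 98 in the CNO alone mouse, and whether the CP averages hold them is not given in the sources used here. A choroid plexus transcript varied between sections: Ttr, which carries thyroid hormone in cerebrospinal fluid, was at 0.491, 0.393 and 0.392 in GqCNO mice, at 0.908, 0.0301 and 0.0504 in GqVeh mice and at 2.64 and 0.0660 in CNO alone mice, with CNO alone mouse C2W2 highest and GqVeh mouse 802 next. Without GqCNO mouse 781 it passed as lower (-2.14, adjusted p = 4.57e-06).

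Of 10813 genes tested, 6 passed at an adjusted p under 0.05 in limma, 0.0555% of all: 1 rose (0.00925%) and 5 fell (0.0462%) in GqCNO mice. An unadjusted p under 0.05 was reached by 228 genes that were higher (2.11%) and 750 that were lower (6.94%) in GqCNO mice, 9.04% together, and 60% of all genes lay below 0, with a median of -0.03. That asymmetry depended on the scaling, since with TMM scaling, which moved the median to -0.004, the same threshold gave 370 higher and 559 lower. The gene that rose was the astrocyte enzyme Etnppl, and those that fell were Unc13a, which primes synaptic vesicles, the neurofilament gene Nefm, the actin-binding gene Nexn, and the RNAs A830036E02Rik and AC149090.1. Without the array block no gene passed. Mice of both groups did not overlap for 531 genes higher (4.91%) and 1000 genes lower (9.25%) in GqCNO mice. Side by side, and with mice in common, GqCNO against GqVeh mice gave 46 genes (0.425%; 21 higher, 0.194%, and 25 lower, 0.231%), and, without adjustment, 4.55% of genes were higher and 5.38% lower under 0.05. GqVeh against CNO alone mice gave 11 genes (0.102%; 1 higher, 0.00925%, and 10 lower, 0.0925%), and 1.96% higher and 6.3% lower unadjusted.

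**Figure D1:**
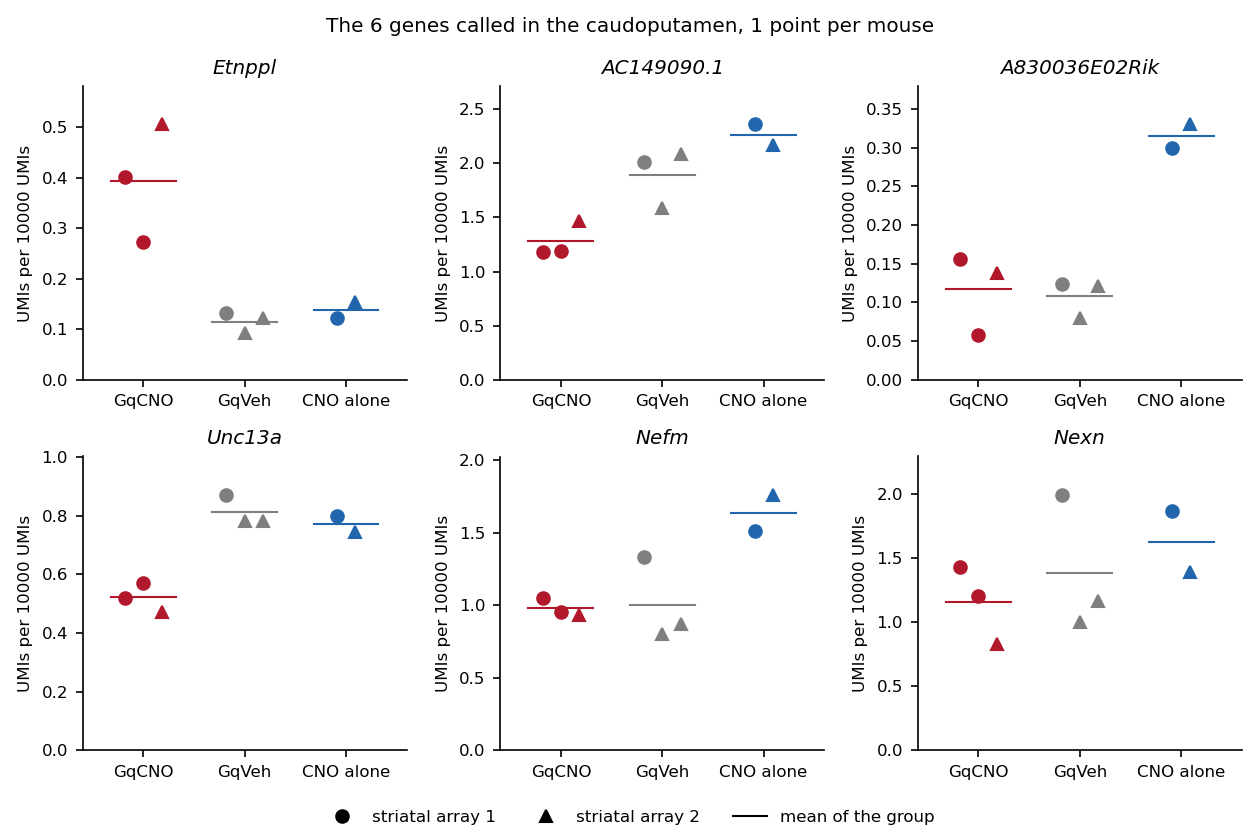
Level in the CP (UMIs per 10000 UMIs) of the 6 genes that passed at an adjusted p under 0.05, with 1 point per mouse, circles for array 1, triangles for array 2 and a line at the mean of each group. GqCNO and CNO alone mice do not overlap for 5 of the 6 genes, the exception being Nexn, and for A830036E02Rik the GqVeh mice lie among the GqCNO mice.

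Etnppl (ENSMUSG00000019232, chromosome 3 from 130617448 to 130635750 of GRCm38.p6) encodes ethanolamine-phosphate phospho-lyase, an enzyme of phospholipid breakdown that in brain is made mainly by astrocytes. It was at 0.401, 0.272 and 0.506 in GqCNO mice, at 0.132, 0.0928 and 0.122 in GqVeh mice and at 0.123 and 0.154 in CNO alone mice, from 117 to 315 UMIs per GqCNO mouse and 65 and 70 per CNO alone mouse. Every GqCNO mouse lay above every mouse of both control groups. The log2 difference was 1.23 (SE 0.16, adjusted p = 0.00199 in limma), with 1.14 within array 1 and 1.45 within array 2. Against GqVeh, which shares the GqCNO mice with this comparison, it was 1.46 (adjusted p = 1.06e-05), and GqVeh against CNO alone gave -0.22 (adjusted p = 0.754). It passed under every alternative except those without the array block or the minimum level, the methods' t-test, and leaving out CNO alone mouse C2W2 (1.19, adjusted p = 0.0534).

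Unc13a (ENSMUSG00000034799, chromosome 8 from 71624125 to 71671774), the Munc13-1 protein that makes synaptic vesicles ready for release, was at 0.521, 0.570 and 0.473 in GqCNO mice, at 0.872, 0.782 and 0.782 in GqVeh mice and at 0.801 and 0.746 in CNO alone mice. All GqCNO mice lay below all mice of both control groups. The log2 difference from CNO alone was -0.55 (SE 0.09, adjusted p = 0.0205), close to the same within array 1 (-0.52) and array 2 (-0.60), and GqCNO against GqVeh gave -0.64 (adjusted p = 0.000377). GqVeh against CNO alone gave 0.09 (adjusted p = 0.853). The call was lost without GqCNO mouse 781 (adjusted p = 0.0820), CNO alone mouse C2W2 (0.137) or CNO alone mouse C1W7 (0.104), with values of -0.53, -0.59 and -0.52, and also in a fit of the 5 compared columns alone (0.1002) and in DESeq2 (0.0853).

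AC149090.1 (ENSMUSG00000095041), which has no entry by that name in the reference table, was at 1.18, 1.19 and 1.47 in GqCNO mice, at 2.01, 1.59 and 2.08 in GqVeh mice and at 2.36 and 2.17 in CNO alone mice. The GqCNO mice were again below all 5 controls. Its log2 difference was -0.80 (SE 0.11, adjusted p = 0.00345), with -0.96 within array 1 and -0.55 within array 2, and GqCNO against GqVeh gave -0.54 (adjusted p = 0.0209). Without CNO alone mouse C2W2 it was -0.69 and no longer passed (adjusted p = 0.137).

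The other 3 genes that fell against CNO alone did not pass against GqVeh mice. The long noncoding RNA A830036E02Rik (ENSMUSG00000084890, chromosome 11 from 99417243 to 99423098) was at 0.156, 0.0581 and 0.138 in GqCNO mice, at 0.123, 0.0802 and 0.122 in GqVeh mice and at 0.300 and 0.330 in CNO alone mice. Both injected groups lay below the CNO alone mice, by -1.17 in GqCNO mice (SE 0.20, adjusted p = 0.0205) and -1.23 in GqVeh mice (adjusted p = 0.00646), with 0.06 between them. DESeq2 gave -1.36 for GqCNO against CNO alone, which did not pass. GqCNO against CNO alone no longer passed without mouse C2W2 (adjusted p = 0.162) or mouse C1W7 (0.104), or in the 5 columns alone (0.0635). Nefm (ENSMUSG00000022054, chromosome 14 from 68119545 to 68125004), the medium neurofilament subunit that gives thick axons their calibre, was at 1.05, 0.956 and 0.931 in GqCNO mice, at 1.33, 0.805 and 0.870 in GqVeh mice and at 1.51 and 1.76 in CNO alone mice (-0.74, SE 0.13, adjusted p = 0.0242). It was -0.67 in GqVeh mice against CNO alone (adjusted p = 0.0400) and -0.07 in GqCNO against GqVeh mice. For Nefm in GqCNO against CNO alone mice, DESeq2 gave -0.75, which did not pass (adjusted p = 0.703). Leaving out CNO alone mouse C1W7 brought Nefm to -0.48 (adjusted p = 0.219), and leaving out GqCNO mouse 804 to -0.69 (0.102).

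Nexn (ENSMUSG00000039103, chromosome 3 from 152236982 to 152266350), which binds actin filaments, was at 1.43, 1.20 and 0.831 in GqCNO mice, at 1.99, 0.997 and 1.17 in GqVeh mice and at 1.86 and 1.39 in CNO alone mice. GqCNO mouse 801 lay above CNO alone mouse C1W7, so that the groups overlapped, while within array 1 (-0.49) and array 2 (-0.70) GqCNO was lower (overall -0.60, SE 0.11, adjusted p = 0.0290). TMM scaling (adjusted p = 0.0572) and edgeR (0.0716) ended this call, as did leaving out GqCNO mouse 804 (0.162), GqCNO mouse 781 (0.0676) or CNO alone mouse C1W7 (0.198), and the fit of the 5 columns alone (0.0808).

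The paternally expressed gene Dlk1, a Notch-like surface protein, did not pass here. It was at 0.0978, 0.0651 and 0.0786 in GqCNO mice, at 0.0616, 0.0765 and 0.104 in GqVeh mice and at 0.178 and 0.163 in CNO alone mice (-0.75, SE 0.15, adjusted p = 0.0806, and -0.78 in GqVeh against CNO alone with an adjusted p of 0.0400). It passed without GqCNO mouse 801 (adjusted p = 0.0147), GqVeh mouse 802 (0.0403) or GqVeh mouse 785 (0.0427), and with an added constant of 0.2 (0.0291). The keratin gene Krt12, which lies on chromosome 11 like A830036E02Rik and was looked at after its value was seen, was at 0.178, 0.0837 and 0.159 in GqCNO mice, at 0.132, 0.171 and 0.125 in GqVeh mice and at 0.184 and 0.297 in CNO alone mice (-0.57, SE 0.17, adjusted p = 0.297, and 0.0416 without GqCNO mouse 801). Scn8a, the sodium channel of the axon initial segment, likewise named after its value was seen, was the only other gene with an adjusted p under 0.1 beside Dlk1 and Npas4 (-0.52, SE 0.11, adjusted p = 0.0866).

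**Figure D2:**
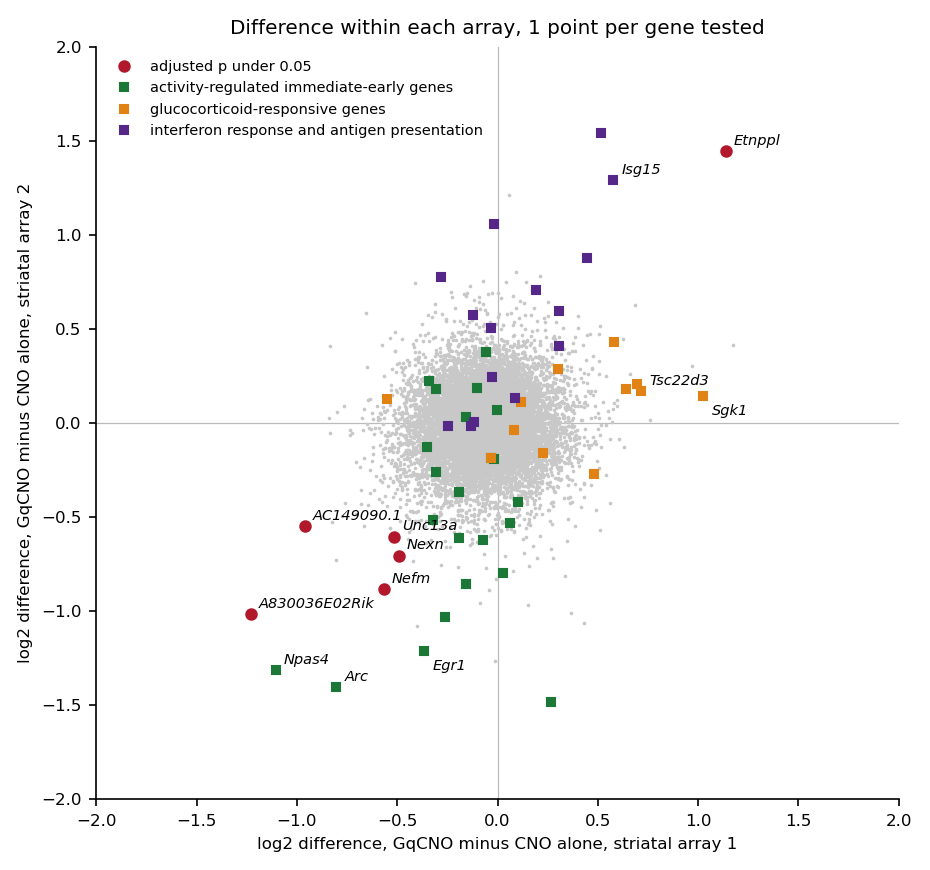
Log2 difference of GqCNO minus CNO alone for each gene tested, on array 1 (2 GqCNO mice against C2W2, x axis) and array 2 (1 GqCNO mouse against C1W7, y axis), with called genes in red, activity-regulated genes in green, glucocorticoid-responsive genes in orange, interferon and antigen presentation genes in purple and other genes in grey (1 gene lies outside the axes). Npas4, Arc and Egr1 lie low on both arrays, Sgk1 and Tsc22d3 high mainly on array 1, and Isg15 higher on array 2.

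Activity-regulated immediate-early genes, the transcripts that neurons make within minutes of strong input, were mostly lower in GqCNO mice, none passing the adjusted threshold. Of 28 genes of this list 23 were tested, 20 lay below 0 and 7 were lower at an unadjusted p under 0.05, against 6.94% of all genes, and none was higher. The median log2 difference was -0.28, against -0.03 for all genes tested, with -0.16 within array 1 and -0.42 within array 2. Side by side, the list's median was -0.53 in GqCNO against GqVeh mice and 0.21 in GqVeh against CNO alone mice, comparisons that share mice with this one. The summed level of the list was 9.49, 13.0 and 9.41 in GqCNO mice, 16.8, 12.9 and 12.4 in GqVeh mice and 13.3 and 12.3 in CNO alone mice, so that GqCNO mouse 804 lay among the controls while 801 and 781 were below all of them. Left out one at a time, GqCNO mice 801 and 804 gave 4 and 13 members lower under 0.05 (medians -0.18 and -0.35), and CNO alone mice C2W2 and C1W7 gave 11 and 3 (-0.46 and -0.16).

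Npas4, a transcription factor that calcium entry induces and that builds inhibitory synapses, had the smallest p of the list. It was at 0.0579, 0.09999 and 0.0321 in GqCNO mice (29, 43 and 20 UMIs), at 0.257, 0.206 and 0.0556 in GqVeh mice and at 0.224 and 0.154 in CNO alone mice (118 and 70 UMIs). All GqCNO mice were below both CNO alone mice, with a log2 difference of -1.22 (SE 0.23, adjusted p = 0.0539), -1.11 within array 1 and -1.31 within array 2. It passed with an added constant of 0.2 (adjusted p = 0.0486), with the 5 columns alone (0.00505), a fit that called 4 genes and kept 3 of the 6, and without GqCNO mouse 804 (0.0380), GqVeh mouse 784 (0.0241) or GqVeh mouse 785 (0.00106). GqCNO against GqVeh gave -1.11 (adjusted p = 0.0193).

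Arc, which acts in the uptake of AMPA receptors, was at 0.134, 0.491 and 0.148 in GqCNO mice, at 0.893, 0.669 and 0.222 in GqVeh mice and at 0.501 and 0.473 in CNO alone mice (-1.10, SE 0.33, adjusted p = 0.287). Egr1, a zinc finger transcription factor, was at 1.11, 1.95 and 0.836 in GqCNO mice, at 2.83, 1.73 and 2.10 in GqVeh mice and at 1.92 and 2.00 in CNO alone mice (-0.74, SE 0.17, adjusted p = 0.163). For both, GqCNO mice 801 and 781 were low and 804 was as high as the CNO alone mice. Without mouse 804, Egr1 (-0.98, adjusted p = 0.00140) and Arc (-1.49, adjusted p = 0.0495) passed, and Egr1 also without CNO alone mouse C2W2 (adjusted p = 0.0285). Nr4a3, an orphan nuclear receptor, was at 0.0260, 0.0581 and 0.0176 in GqCNO mice and at 0.0588 and 0.0880 in CNO alone mice (-0.62, SE 0.21, adjusted p = 0.368), from 11 to 25 UMIs in GqCNO mice. The other 3 members under 0.05, named after their values were seen, were Egr4 (-0.47), Junb (-0.43) and Homer1 (-0.26).

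The promoters of several genes of the activity-regulated list hold the core of the cAMP response element, the site of CREB, through which calcium and cAMP reach the immediate-early genes. The 7 letters searched, TGACGTC on both strands in the RefSeq windows of GRCm38.p6 from 250 bases before to 50 bases after each start, form part of the full palindromic element, and the motif and the genes shown were chosen with the values known. The core is in the window of 6 of the 21 activity-regulated genes that have one (28.6%), against 3.6% of all 27025 genes with a window and 6.75% of those tested. The 6 are Btg2, Dusp1, Egr2, Npas4, Nr4a3 and Per1. Of these only Npas4 and Nr4a3 were lower at an unadjusted p under 0.05. The stretches upstream of the start that hold it are shown 5′ to 3′ on the strand of the gene, with each match in capitals, for Npas4 (chr19:4990094-4990193, minus strand, 2 matches) and Nr4a3 (chr4:48045055-48045154, plus strand, 1 match).
Npas4: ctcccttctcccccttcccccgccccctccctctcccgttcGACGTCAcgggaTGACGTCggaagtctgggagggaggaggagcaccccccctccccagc
Nr4a3: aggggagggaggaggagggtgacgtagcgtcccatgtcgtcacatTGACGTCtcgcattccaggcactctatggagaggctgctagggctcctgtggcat
A match is a run of letters and says nothing on whether the site was bound in these mice.

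Genes that glucocorticoids induce lay above 0 for the most part, again with none past the adjusted threshold. Of 19 genes 12 were tested, 10 lay above 0 and 6 were higher at an unadjusted p under 0.05, against 2.11% of all genes, and none was lower. The median was 0.23 against -0.03 for all genes, with 0.39 within array 1 and 0.13 within array 2, and 0.21 in GqCNO against GqVeh and 0.03 in GqVeh against CNO alone mice. The tested members not under 0.05 were Nfkbia (0.14), Fkbp5 (0.11), Errfi1 (0.07), Klf9 (0.03), Per1 (-0.11) and Cdkn1a (-0.24). All of these overlapped between GqCNO and CNO alone mice. The 6 under 0.05 are the genes whose GqCNO mice all lay above both CNO alone mice, as 4.91% of all genes did: Sgk1, Tsc22d3, Arrdc2, Mt2, Sult1a1 and Ddit4. Without CNO alone mouse C2W2 none of them was under 0.05, and the median of the list was 0.15.

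Sgk1, the serum- and glucocorticoid-induced kinase that sets ion channel and transporter density, was at 1.43, 1.23 and 0.928 in GqCNO mice, at 0.750, 0.886 and 0.578 in GqVeh mice and at 0.626 and 0.836 in CNO alone mice. Every GqCNO mouse lay above all 5 controls. The log2 difference was 0.65 (SE 0.16, adjusted p = 0.175), but it was 1.03 within array 1 and 0.14 within array 2, and without GqCNO mouse 781 it passed (0.90, adjusted p = 0.0244). Tsc22d3 (GILZ), a leucine zipper protein that carries anti-inflammatory glucocorticoid effects, was at 0.657, 0.577 and 0.509 in GqCNO mice, at 0.363, 0.332 and 0.300 in GqVeh mice and at 0.355 and 0.447 in CNO alone mice (0.47, SE 0.12, adjusted p = 0.189). Against GqVeh it was 0.69 (adjusted p = 0.0029). Mt2, a metallothionein that binds zinc and scavenges radicals, was at 2.57, 2.54 and 2.20 in GqCNO mice, at 1.62, 1.23 and 1.81 in GqVeh mice and at 1.62 and 1.93 in CNO alone mice (0.44, SE 0.13, adjusted p = 0.264). Arrdc2 (0.51, adjusted p = 0.244), Sult1a1 (0.51, adjusted p = 0.367) and Ddit4 (0.31, adjusted p = 0.471) were close to it in size.

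A glucocorticoid response element was searched as GNACA, any 3 letters and TGTNC, which reads the same on both strands, and it is in the windows of 2 of 17 genes of this list, Sgk1 and Map3k6 (11.8%), against 0.537% of all genes with a window. Map3k6 was too low to be tested. The match of Sgk1 lies before 1 of its alternative starts (chr10:21993658-21993757, plus strand) and is shown in capitals because Sgk1 leads the list.
Sgk1: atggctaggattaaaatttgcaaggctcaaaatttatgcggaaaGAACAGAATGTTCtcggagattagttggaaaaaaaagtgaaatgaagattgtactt

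**Figure D3:**
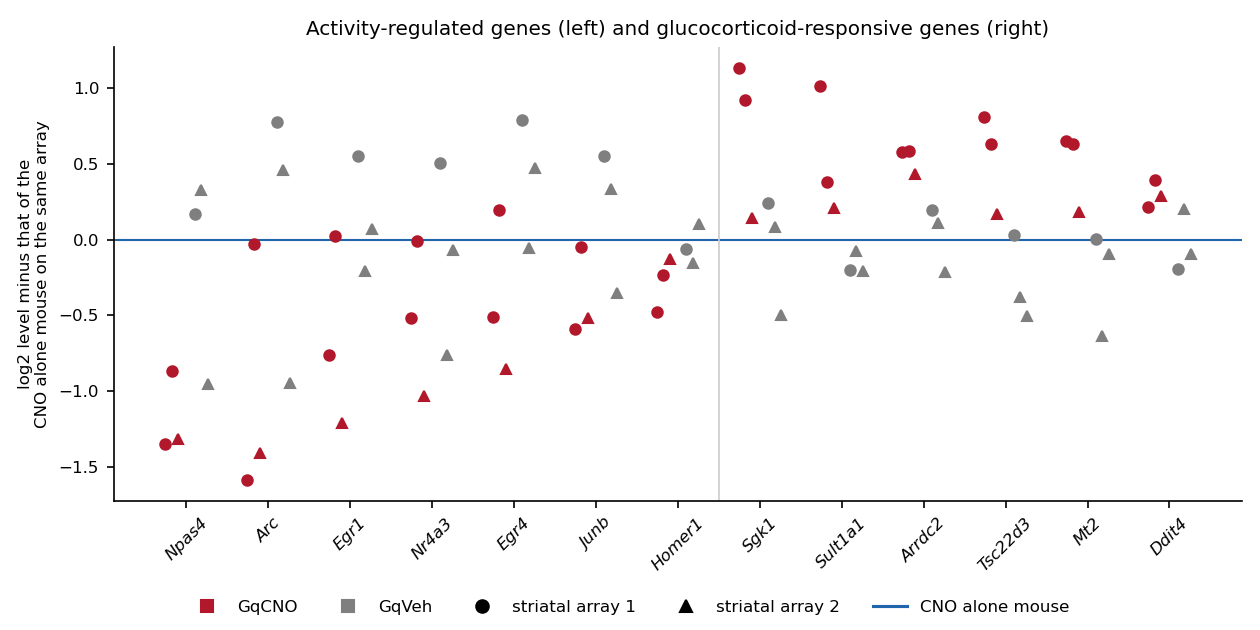
Log2 level of each GqCNO mouse (red) and GqVeh mouse (grey) minus that of the CNO alone mouse on the same array (blue line at 0), for the members of both lists with an unadjusted p under 0.05, circles for array 1 and triangles for array 2. All GqCNO mice lie below 0 for Npas4 and above 0 for the 6 genes on the right, and GqCNO mouse 804 lies near 0 for Arc and Egr1. The genes were chosen by the same values that are plotted.

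Genes of interferon response and antigen presentation were highest in GqCNO mouse 781, with a summed level of 2.91, 3.52 and 5.35 in GqCNO mice, 3.54, 3.24 and 3.35 in GqVeh mice and 2.96 and 3.30 in CNO alone mice. Of 35 genes 15 were tested, 12 lay above 0 and 7 were higher at an unadjusted p under 0.05 (2.11% of all genes), none of them past the adjusted threshold. The median was 0.19, but -0.02 within array 1 and 0.57 within array 2, and without GqCNO mouse 781 it was 0.00 with no member under 0.05, and without CNO alone mouse C1W7 4 members stayed under 0.05. Isg15, a ubiquitin-like protein made under interferon, was at 0.0599, 0.0628 and 0.148 in GqCNO mice (30, 27 and 92 UMIs), at 0.123, 0.0364 and 0.0261 in GqVeh mice and at 0.0247 and 0.0308 in CNO alone mice (13 and 14 UMIs; 0.78, SE 0.26, adjusted p = 0.368). GqVeh mouse 802 was also high for Isg15, and without it Isg15 passed (adjusted p = 0.0403). B2m, the light chain of MHC class I, was at 0.731, 0.958 and 1.31 in GqCNO mice, at 0.816, 0.795 and 0.874 in GqVeh mice and at 0.668 and 0.852 in CNO alone mice (0.40, SE 0.13, adjusted p = 0.335), with GqCNO mouse 801 below CNO alone mouse C1W7.

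The interferon-stimulated response element, searched on both strands as TTTC, any 2 letters and TTTC, is in the window of 10 of the 26 genes of this list that have one (38.5%), against 3.99% of all genes with a window. The stretches upstream of Isg15 (chr4:156200836-156200935, minus strand, 3 overlapping matches) and B2m (chr2:122147503-122147602, plus strand) are shown for a low and an abundant member of the list, and the capitals mark the matches, which run on the other strand.
Isg15: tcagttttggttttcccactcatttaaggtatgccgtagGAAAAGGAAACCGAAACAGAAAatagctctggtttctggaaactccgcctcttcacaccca
B2m: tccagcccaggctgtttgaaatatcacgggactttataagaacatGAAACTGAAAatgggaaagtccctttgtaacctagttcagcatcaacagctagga

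According to the methods, the authors left out discs high in the astrocyte markers Gfap and Aldh1l1 or the microglial markers Aif1 and P2ry12. The glial levels given here thus come from the discs that remained, and what this choice did to them was not tested. Genes of complement and reactive glia lay above 0 for 11 of 12 tested (of 26 listed), with 6 higher at an unadjusted p under 0.05 (2.11% of all genes) and a median of 0.20. Without GqCNO mouse 781 or CNO alone mouse C2W2 3 of them were left, and without CNO alone mouse C1W7 2. The list's other 14 members were below the level tested, among them C3 and Serpina3n. Apoe, the main lipid carrier of brain and made by astrocytes and microglia, was at 27.6, 25.7 and 33.1 in GqCNO mice, at 23.02, 26.0 and 24.7 in GqVeh mice and at 21.4 and 24.8 in CNO alone mice (0.35, SE 0.10, adjusted p = 0.244), and it passed in DESeq2 (0.40, adjusted p = 0.0293). Complement C4b was at 0.140, 0.186 and 0.265 in GqCNO mice, at 0.0786, 0.0978 and 0.0990 in GqVeh mice and at 0.154 and 0.0858 in CNO alone mice (0.56, SE 0.18, adjusted p = 0.341), with 0.06 within array 1 and 1.21 within array 2, and it passed without CNO alone mouse C2W2 (1.09, adjusted p = 0.0285). Gfap, the astrocyte filament that rises in gliosis, was at 0.168, 0.156 and 0.347 in GqCNO mice and at 0.133 and 0.180 in CNO alone mice (0.42, SE 0.15, adjusted p = 0.414). Mouse 781 was again the highest.

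Of the 15 astrocyte markers, Etnppl among them, all were tested, 12 lay above 0 with a median of 0.10, and 3 were higher at an unadjusted p under 0.05 (2.11% of all genes), Etnppl, Gjb6 and Gfap. The summed level was 29.2, 28.4 and 28.7 in GqCNO mice, 27.8, 24.1 and 25.6 in GqVeh mice and 26.5 and 27.0 in CNO alone mice, so that every GqCNO mouse lay above all 5 controls. Gjb6 (connexin 30), which joins astrocytes through gap junctions, was at 0.343, 0.309 and 0.324 in GqCNO mice, at 0.183, 0.192 and 0.198 in GqVeh mice and at 0.188 and 0.262 in CNO alone mice (0.48, SE 0.12, adjusted p = 0.188). Against GqVeh it was 0.68 (adjusted p = 0.0029). Fam107a, which binds actin and is made by astrocytes among others, was at 2.85, 1.80 and 2.02 in GqCNO mice, at 1.65, 1.26 and 1.61 in GqVeh mice and at 1.45 and 1.47 in CNO alone mice (0.54, SE 0.14, adjusted p = 0.188), and passed without GqCNO mouse 804 (0.70, adjusted p = 0.0355).

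Microglial markers had a median of 0.13 over 17 tested genes, 15 of them above 0 and 4 higher at an unadjusted p under 0.05, against 2.11% of all genes (2 without GqCNO mouse 781 or CNO alone mouse C2W2, 1 without CNO alone mouse C1W7). Their summed level was 7.70, 8.07 and 9.24 in GqCNO mice, 7.53, 8.57 and 8.22 in GqVeh mice and 7.35 and 7.81 in CNO alone mice, so that the groups overlapped. Fcrls, a microglial surface receptor, was at 0.192, 0.179 and 0.258 in GqCNO mice, at 0.189, 0.229 and 0.219 in GqVeh mice and at 0.158 and 0.152 in CNO alone mice (0.37, SE 0.12, adjusted p = 0.368). Oligodendrocyte markers lay the other way: 13 of 14 were below 0, the median was -0.11 and 3 were lower at an unadjusted p under 0.05 (6.94% of all genes), Ugt8a (-0.47) and Mag (-0.26) among them. That count was 8 without GqCNO mouse 781, 2 without CNO alone mouse C2W2 or C1W7 or GqVeh mouse 785, and 1 without GqCNO mouse 801 or with TMM scaling. Their sums overlapped, at 79.0, 75.1 and 74.4 in GqCNO mice, 84.9, 58.9 and 63.2 in GqVeh mice and 86.9 and 74.5 in CNO alone mice. No T cell marker was tested except Cd4, and it differed by 0.01. In CNO alone mice Cd4 was at 0.751 and 0.6095 in the CP and at 0.0614 and 0.0950 in white matter. Which cells made it was not tested.

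**Figure D4:**
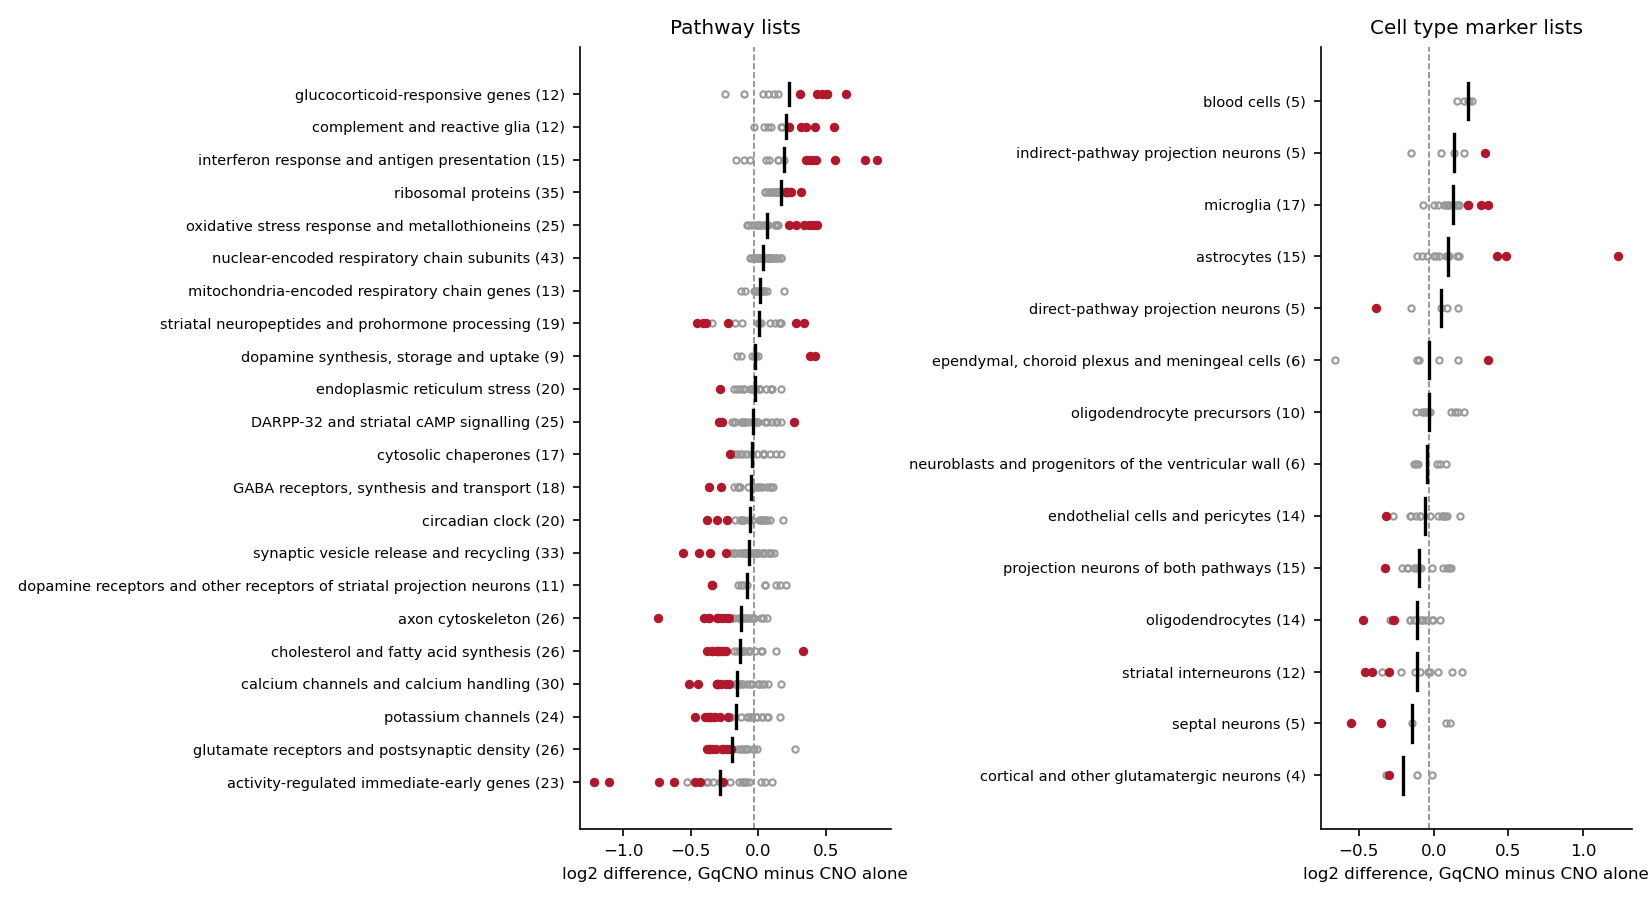
Log2 difference of GqCNO minus CNO alone for every tested member (number in brackets) of the pathway lists (left) and of the cell type lists with at least 3 tested members (right), red where the unadjusted p was under 0.05, with a black bar at the median of the list and a dashed line at the median of all genes. Glucocorticoid-responsive genes stand at the top of the pathway lists and activity-regulated genes at the bottom.

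Most genes of excitatory synapses and of membrane excitability lay below 0, as did 60% of all genes. Over both arrays together, the summed levels of these lists overlapped between the groups. Within an array, each GqCNO sum lay below that of the CNO alone mouse, for calcium genes on array 2 by only 119 against 120. For potassium channels the GqVeh sums lay below it too. For glutamate receptors and the postsynaptic density, all 26 genes were tested, 25 lay below 0 and 10 were lower at an unadjusted p under 0.05 (6.94% of all genes), with a median of -0.20. For potassium channels 24 of 26 were tested, 19 lay below 0 and 10 were lower, with a median of -0.17. For calcium channels and handling 30 of 32 were tested, 25 lay below 0 and 9 were lower, with a median of -0.16. None of these genes passed the adjusted threshold, none was higher under 0.05, and within array 2 the medians were -0.08, -0.16 and -0.14. Side by side, and with mice in common, the medians were -0.08, -0.02 and -0.10 in GqCNO against GqVeh mice. In GqVeh against CNO alone mice they were -0.05, -0.16 and -0.08. Without GqCNO mouse 801 the counts lower were 5, 8 and 2, without CNO alone mouse C2W2 3, 5 and 8, and without CNO alone mouse C1W7 11, 9 and 5.

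Grin2b, the NMDA receptor subunit with slow currents, was at 1.44, 1.45 and 0.783 in GqCNO mice, at 1.44, 0.720 and 0.922 in GqVeh mice and at 1.66 and 1.20 in CNO alone mice (-0.37, SE 0.11, adjusted p = 0.285). Its level followed the array more than the group. Kcna2, an axonal potassium channel, was at 0.741, 0.653 and 0.478 in GqCNO mice, at 0.901, 0.458 and 0.568 in GqVeh mice and at 0.958 and 0.680 in CNO alone mice (-0.47, SE 0.11, adjusted p = 0.163). For Kcna2 GqCNO mouse 801 lay above CNO alone mouse C1W7. Cacna1a, the P/Q-type calcium channel of nerve terminals, was at 0.477, 0.542 and 0.419 in GqCNO mice, at 0.568, 0.476 and 0.547 in GqVeh mice and at 0.685 and 0.623 in CNO alone mice (-0.45, SE 0.10, adjusted p = 0.163). Ryr1, a calcium release channel of internal stores, differed by -0.51 (SE 0.13, adjusted p = 0.189), and neither Cacna1a nor Ryr1 overlapped between GqCNO and CNO alone mice.

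Presynaptic genes differed less as a list. All 33 genes of synaptic vesicle release and recycling were tested, 23 lay below 0 with a median of -0.07, and 4 were lower under 0.05 (6.94% of all genes). These were Unc13a, the slow calcium sensor Syt7 (-0.44, SE 0.11, adjusted p = 0.188), the SNARE clamp Cplx2 (-0.36, SE 0.11, adjusted p = 0.341) and Stx1a. The median of the list turned to 0.08 without CNO alone mouse C2W2 and was -0.15 without CNO alone mouse C1W7, and the sign of the list thus differed between the CNO alone mice.

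Of the axon cytoskeleton, all 26 genes were tested, 23 lay below 0 and 9 were lower under 0.05 (6.94% of all genes), Nefm with an adjusted p under 0.05 (0.0462% of all genes), and the median was -0.13 on array 1 and -0.14 on array 2. The count was 6 without GqCNO mouse 781 or CNO alone mouse C2W2. Tubb4a, a neuronal and oligodendroglial tubulin, was at 2.28, 2.15 and 2.19 in GqCNO mice, at 2.90, 3.08 and 2.65 in GqVeh mice and at 2.93 and 2.76 in CNO alone mice (-0.36, SE 0.09, adjusted p = 0.188). Tuba4a, an alpha tubulin of mature neurons, was at 2.68, 2.69 and 3.09 in GqCNO mice, at 3.69, 5.04 and 4.45 in GqVeh mice and at 3.68 and 3.76 in CNO alone mice (-0.36, SE 0.09, adjusted p = 0.204). Every GqCNO mouse was under every control for both tubulins, and against GqVeh both fell (adjusted p = 0.0385 and 0.00255).

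In cholesterol and fatty acid synthesis, 22 of 26 tested genes lay below 0 (27 listed), 10 were lower (6.94% of all genes) and 1 was higher (2.11%) under 0.05, and the median was -0.14. The count lower was 4 without GqCNO mouse 801 and 3 without CNO alone mouse C2W2. Hmgcs1, the enzyme that opens the mevalonate pathway, was at 0.557, 0.632 and 0.623 in GqCNO mice, at 0.740, 0.804 and 0.795 in GqVeh mice and at 0.780 and 0.785 in CNO alone mice (-0.34, SE 0.10, adjusted p = 0.247). Idi1, of the same pathway, was at 0.0998, 0.133 and 0.124 in GqCNO mice, at 0.157, 0.149 and 0.186 in GqVeh mice and at 0.163 and 0.178 in CNO alone mice (-0.38, SE 0.13, adjusted p = 0.379). The higher gene was Acsl3, which activates long-chain fatty acids, at 1.40, 1.30 and 1.31 in GqCNO mice, 1.17, 1.07 and 1.01 in GqVeh mice and 1.002 and 1.10 in CNO alone mice (0.33, SE 0.09, adjusted p = 0.275). For each of these 3 genes all GqCNO mice stood on 1 side of all 5 controls.

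Genes of oxidative stress defence and metallothioneins were higher under 0.05 in 6 of 25 tested (27 listed), against 2.11% of all genes, and none was lower, with a median of 0.06. Without CNO alone mouse C2W2 2 were left. Beside Mt2 these were Mt1 (0.38, SE 0.11, adjusted p = 0.287), the peroxiredoxin Prdx6 (0.28, SE 0.09, adjusted p = 0.354), the mitochondrial carrier Ucp2 (0.33, SE 0.13, adjusted p = 0.432), Nqo1 and Gstm1. Ucp2 was at 0.140, 0.133 and 0.143 in GqCNO mice, at 0.0829, 0.107 and 0.0955 in GqVeh mice and at 0.104 and 0.0968 in CNO alone mice. Mt1 was at 11.6, 11.2 and 13.4 in GqCNO mice, at 8.13, 8.48 and 10.4 in GqVeh mice and at 7.53 and 12.3 in CNO alone mice, so that mouse C1W7 overlapped GqCNO mice. The genes of the respiratory chain did not differ under 0.05, with medians of 0.03 over 43 nuclear and 0.01 over 13 mitochondrial genes.

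Among neuropeptides, Pdyn was lower and Penk higher at an unadjusted p under 0.05. Pdyn, which encodes dynorphin in direct-pathway neurons, was at 1.39, 0.937 and 1.23 in GqCNO mice, at 1.65, 1.93 and 1.69 in GqVeh mice and at 1.67 and 1.44 in CNO alone mice (-0.38, SE 0.12, adjusted p = 0.342). Penk, which encodes enkephalin in indirect-pathway neurons, was at 28.3, 32.1 and 25.8 in GqCNO mice, at 22.0, 30.9 and 27.2 in GqVeh mice and at 22.3 and 23.4 in CNO alone mice (0.34, SE 0.12, adjusted p = 0.414). Neither overlapped between GqCNO and CNO alone mice, and whether the 2 peptides differ from each other was not tested. Tac1, which encodes substance P in direct-pathway neurons, was at 7.38, 5.34 and 8.02 in GqCNO mice, at 5.99, 8.54 and 7.18 in GqVeh mice and at 5.96 and 7.47 in CNO alone mice (0.09, SE 0.11, adjusted p = 0.866), with overlap. Cck and Nos1, listed here as interneuron markers, were lower too. Cck was at 0.216, 0.230 and 0.156 in GqCNO mice against 0.290 and 0.246 in CNO alone mice (-0.41, adjusted p = 0.244). Nos1 was at 0.216, 0.156 and 0.167 against 0.268 and 0.238 (-0.46, adjusted p = 0.341). In GqVeh mice Cck was at 0.308, 0.238 and 0.214 and Nos1 at 0.219, 0.144 and 0.109. GqCNO against GqVeh gave -0.39 for Cck and 0.07 for Nos1, and GqVeh against CNO alone gave -0.02 and -0.53. In white matter of CNO alone mice Cck was at 2.33 and 1.28, beside 2.64 and 1.14 for Slc17a7, a marker of glutamatergic neurons. Which cells made Cck in the CP was not tested. Vgf, a secreted peptide precursor, was at 1.52, 1.55 and 1.45 in GqCNO mice, at 2.42, 2.39 and 2.12 in GqVeh mice and at 1.89 and 1.62 in CNO alone mice (-0.23, SE 0.09, adjusted p = 0.445), and GqCNO against GqVeh gave -0.64 (adjusted p = 0.000262). For the markers as lists, the median was 0.05 over 5 direct-pathway genes, 0.13 over 5 indirect-pathway genes and -0.11 over 12 interneuron genes, beside -0.03 for all genes.

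Genes that make, store or take up dopamine were tested for 9 of 12, and Slc6a3, Slc18a2 and Gch1 were below the level tested. Th was at 0.0739, 0.0558 and 0.104 in GqCNO mice, at 0.117, 0.142 and 0.132 in GqVeh mice and at 0.0949 and 0.0880 in CNO alone mice (-0.13, SE 0.14), with overlap. The vesicular transporter Slc10a4 was at 0.299, 0.293 and 0.350 in GqCNO mice, at 0.289, 0.357 and 0.311 in GqVeh mice and at 0.199 and 0.262 in CNO alone mice (0.42, SE 0.11, adjusted p = 0.206). Ddc, which makes dopamine from DOPA, was at 0.142, 0.128 and 0.111 in GqCNO mice, at 0.0829, 0.0827 and 0.0868 in GqVeh mice and at 0.0721 and 0.101 in CNO alone mice (0.38, SE 0.14, adjusted p = 0.414).

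Some RNA measures varied between mice and arrays as well as between the groups. The transcript Gm42418, which overlaps ribosomal RNA sequence, was at 116, 77.3 and 99.0 in GqCNO mice, at 74.5, 97.6 and 49.9 in GqVeh mice and at 42.0 and 74.1 in CNO alone mice (0.82, SE 0.22, adjusted p = 0.216), and the like transcript AY036118 differed by 0.66 (adjusted p = 0.188). All 35 ribosomal protein genes lay above 0, 7 of them under 0.05 (2.11% of all genes), with a median of 0.16, of 0.34 within array 1 and of -0.09 within array 2, and -0.03 without CNO alone mouse C2W2. Their summed level was 320, 303 and 302 in GqCNO mice, 253, 289 and 279 in GqVeh mice and 245 and 325 in CNO alone mice, so that mouse C1W7 was the highest. The 7 became 1 without GqCNO mouse 801 or CNO alone mouse C2W2, 2 without GqCNO mouse 804, 4 without GqVeh mouse 802, 31 without GqCNO mouse 781 and 33 without CNO alone mouse C1W7, and 11 with TMM scaling. After rescaling without these transcripts and the mitochondrial genes, an alternative chosen after seeing the data, Etnppl, Unc13a, AC149090.1 and A830036E02Rik stayed past the adjusted threshold and Nefm (adjusted p = 0.05004) and Nexn (0.0576) did not. Gm42418 itself passed without GqVeh mouse 785 (adjusted p = 0.0398). Whether these RNA measures took part in the other differences was not tested. The rescaled medians were -0.29 for activity-regulated and 0.25 for glucocorticoid-responsive genes, with 7 members lower in the first list and 6 higher in the second.

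Within the same sections, the lateral septal complex and white matter were set against the CP, by the difference between regions in each mouse on log2(level + 0.5). No gene of 3017 with enough signal in both regions passed for a difference between the CP and the lateral septal complex (smallest adjusted p = 0.995 in limma, 68 genes under 0.05 unadjusted). The septal columns of GqCNO mouse 804 (80525 UMIs) and GqVeh mouse 784 (107462 UMIs) were the thinnest. Fam107a had the smallest p of that test, with 0.44 in the CP and -0.37 in the septum. Of the called genes, Unc13a and AC149090.1 could be set against the septum, where they differed by -0.17 and -0.48, against -0.33 and -0.64 in the CP on this scale, and neither difference between regions passed (adjusted p = 0.995 for both). Etnppl was too low in the CP for that test. In the septum it was at 0.796, 0.621 and 0.759 in GqCNO mice, at 0.261, 0.186 and 0.466 in GqVeh mice and at 0.428 and 0.522 in CNO alone mice, every GqCNO mouse above all 5 controls. In white matter it was at 0.586, 0.246 and 0.765 in GqCNO mice, at 0.0851, 0.0317 and 0.2004 in GqVeh mice and at 0.2455 and 0.142 in CNO alone mice. There GqCNO mouse 804 was level with CNO alone mouse C2W2, and GqVeh mice 802 and 784 were no higher than the level of 3 UMIs.

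Against white matter 3 of 2514 genes passed, all of haemoglobin, with the larger difference in white matter. Hbb-bs was at 15.7, 12.9 and 12.5 in white matter of GqCNO mice, at 4.43, 3.36 and 2.66 in that of GqVeh mice and at 2.95 and 6.13 in that of CNO alone mice, and in the CP at 6.35, 6.22 and 5.31 in GqCNO mice, at 4.35, 2.87 and 2.17 in GqVeh mice and at 4.24 and 5.63 in CNO alone mice. The difference between GqCNO and CNO alone was 1.56 in white matter and 0.22 in the CP on log2(level + 0.5), the CP minus white matter being -1.34 (SE 0.18, adjusted p = 0.00374). Blood markers in the CP summed to 14.4, 14.2 and 11.98 in GqCNO mice, 9.76, 6.68 and 5.24 in GqVeh mice and 9.93 and 12.6 in CNO alone mice. Sgk1 in white matter was at 9.71, 5.81 and 3.04 in GqCNO mice, at 1.85, 1.81 and 0.551 in GqVeh mice and at 0.368 and 2.71 in CNO alone mice, a log2 difference of 1.85 (SE 0.53, adjusted p = 0.943), and its CP minus white matter difference of -1.41 did not pass (SE 0.40, adjusted p = 0.576). In the septum Sgk1 was low, at 0.590 and 0.193 in GqCNO mice 801 and 781 and at 0.111 and 0.296 in CNO alone mice, with 0 UMIs in GqCNO mouse 804, which allows up to 0.373.

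**Figure D5:**
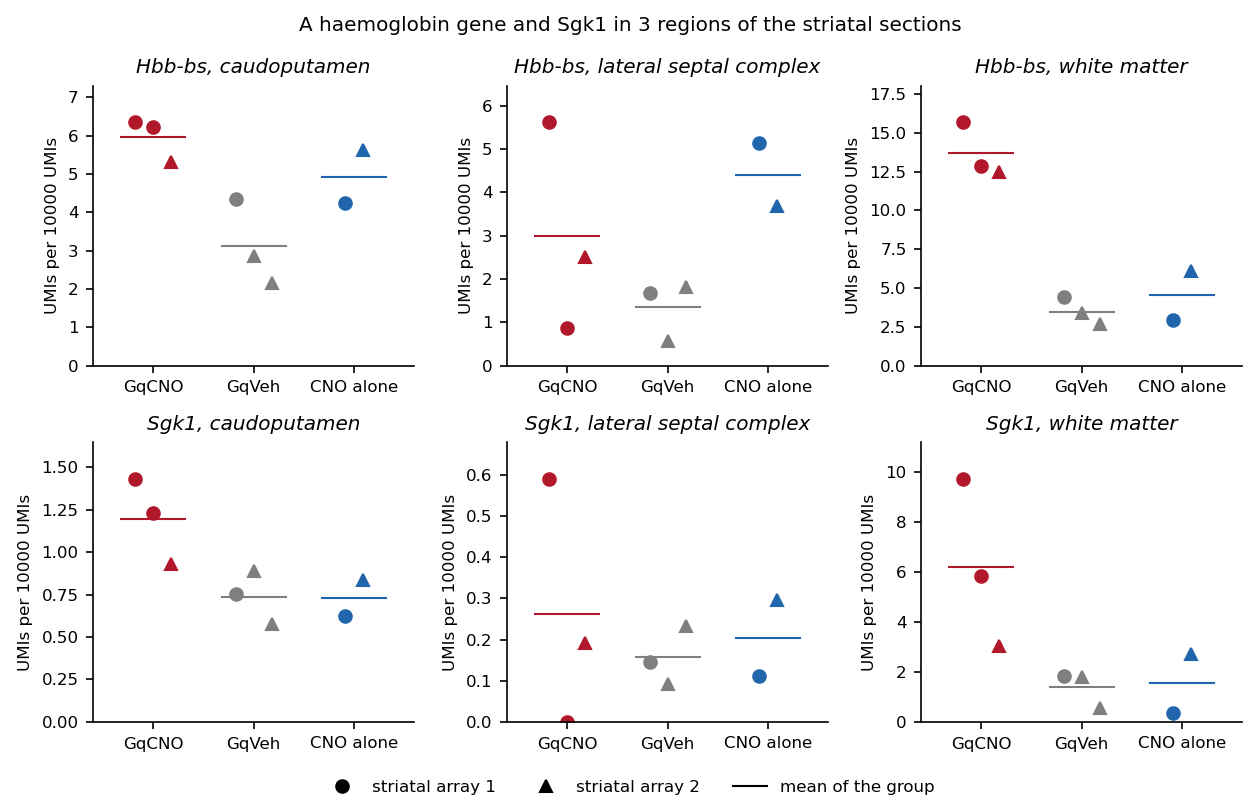
Level (UMIs per 10000 UMIs) of Hbb-bs (top) and Sgk1 (bottom) in the CP, the lateral septal complex and white matter, 1 point per mouse, circles for array 1, triangles for array 2 and a line at the mean of each group, each panel with its own axis from 0. In white matter the GqCNO mice lie at 12.5 to 15.7 for Hbb-bs, above every control.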

How the data were processed

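Fresh-frozen striatal sections of 8 mice on 2 Visium arrays were analysed. The authors aligned reads to mm10 with Space Ranger (version not given in the sources used here), chose discs by region and deposited a median-normalized average signal per gene, region and mouse. They left out discs with high astrocyte or microglial markers. Of the values below 200 steps, 100% lay within 0.05 steps of a whole number, so whole UMI counts were recovered from the deposited signal. Each column was rescaled to 10000; a gene missing from 1 array's table was set to 0. limma 3.58.1 (R 4.3.3) fitted group means with the array as a block and a variance trend over all 8 CP columns, for genes with a mean of at least 0.05, and p-values were adjusted by Benjamini-Hochberg. The mouse was the replicate, and 3 against 2 mice allow no two-sided exact permutation p under 0.2. Differences between regions used genes with a mean of at least 0.5 in both. Named genes were those called, the 12 largest rises and falls (p under 0.01, no overlap, same sign on both arrays), up to 3 genes per list and the genes the study names for the striatum; not every one is described. Members and lists were chosen with earlier results of these data known. Alternatives changed scaling, constant, minimum, block, columns, trend and tool (edgeR 4.0.16, DESeq2 1.42.0, the methods' t-test); the methods' analysis of variance was not run. The procedure was run on simulated counts with planted changes larger than some of those called here. In them genes varied independently, so that shifts shared by many genes of a mouse were not covered. Positions and promoters come from RefSeq (GRCm38.p6), matched by symbol for 10636 of 10813 genes. Disc labels served only to count discs, and midbrain columns were not used here. Results on 3 genes are not reported here.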

Additional observations from a re-analysis of the deposited data

Results flagged for a closer look

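The difference between GqCNO and CNO alone mice was not the same in the CP and in white matter for 3 haemoglobin genes, by limma on the difference between the regions in each mouse. The CP minus white matter difference was -1.34 for Hbb-bs (SE 0.18, adjusted p = 0.00374), -1.34 for Hba-a2 (SE 0.20, adjusted p = 0.00699) and -1.25 for Hba-a1 (SE 0.21, adjusted p = 0.0158). In white matter these genes were higher in all 3 GqCNO mice than in all 5 controls. The paralogues Hba-a1 and Hba-a2 are nearly identical, and how the counting divided their reads is not given in the sources used here, so that they count as 1 signal. Leaving out CNO alone mouse C2W2 ended all 3 calls.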

How the results depend on the processing

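The 6 genes called were 0 without the array block (unadjusted, 79 higher and 194 lower), 0 with no minimum level, 1 with no variance trend (Etnppl), 3 in DESeq2 (Etnppl, AC149090.1 and Apoe) and 0 by the methods' t-test after Benjamini-Hochberg (111 higher and 296 lower unadjusted), and leaving out 1 mouse at a time gave 2 to 10. Without CNO alone mouse C1W7, Etnppl and AC149090.1 were the only calls, and without CNO alone mouse C2W2, Nefm and Nexn were the only 2 of the 6 left among 6 calls. Without GqCNO mouse 804 or GqCNO mouse 781 there were 10 each, 4 of the 6 among them. Unadjusted, DESeq2 gave 174 higher and 175 lower and edgeR 333 and 534, against 228 and 750 in limma. Differences between the CP and the septum numbered 0 to 1 and those between the CP and white matter 0 to 6 when 1 mouse was left out. Leaving out mice one at a time, 8 genes reversed: without C1W7, Rgs2 (range -0.67 to 0.021), Ppp1r1b (-0.020 to 0.17) and Drd1 (-0.0027 to 0.12), and without C2W2, Th (-0.29 to 0.072), Ttr (-2.14 to 0.84), Hbb-bs (-0.27 to 0.65), Hba-a1 (-0.19 to 0.58) and Hba-a2 (-0.23 to 0.57). The cause of any of these changes was not tested. No other gene followed through the alternatives changed sign. No paired analysis was possible because mouse numbers name animals and pair none across groups. The 2 CNO alone mice, 1 per array, are a limit: each carries the whole contrast on its array, and for genes at 20 to 70 UMIs counting error adds to it.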
